A study of Mus musculus with 7 samples.

Results

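The Sertoli cell is the somatic nurse cell of the seminiferous tubule, and 9 genes of its transcriptional and hormonal control were examined in whole testis of Phf13 knockout mice. The set was fixed by symbol and holds 6 classical Sertoli or gonadal transcription factor genes (Wt1, Sox9, Sox8, Gata1, Gata4 and Dmrt1), the nuclear receptor gene Nr0b1, the androgen-regulated homeobox gene Rhox5 and the follicle-stimulating hormone (FSH) receptor gene Fshr. All 9 were measured, out of 18194 genes tested, and each was represented by its brightest probe set with a single gene symbol. The groups were 3 arrays from testes of Phf13 knockout mice and 4 arrays from testes of wild type mice, all aged 15 to 20 weeks, with no treatment named in the labels. The labels give neither the strain nor the deleted part of the gene, nor whether each array came from a separate animal, and p-values therefore cover only the variation among these arrays, part of which may be technical. The Phf13 protein reads histone H3 methylated at lysine 4 through its PHD finger.

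In mouse, WT1 and the GATA4 and SOX9 proteins set up and maintain the Sertoli cell, SOX8 can partly stand in for SOX9, and DMRT1 keeps adult Sertoli cells from turning into cells like the granulosa cells of the ovary. FSH from the pituitary acts on Sertoli cells through its G protein-coupled receptor, which raises cyclic AMP, while testosterone from Leydig cells also acts on them. Sertoli cells pass these hormonal signals on to the germ cells they nurse.

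The Phf13 probe set had log2 signals of 6.04, 5.83 and 5.71 in knockout arrays and 8.66, 8.64, 8.73 and 8.54 in wild type arrays, lower in every knockout array. Column medians of the deposited log2 table lay between 5.01 and 5.08. The labels' tissue was checked against markers of its cells: the spermatid protamine gene Prm1 averaged a log2 signal of 13.88 in knockout and 13.9 in wild type arrays, and the Sertoli cell gene Clu averaged 12.42 in knockout and 11.86 in wild type arrays. Amh, which marks immature Sertoli cells and is known to be low in the adult, averaged only 5.32 in knockout and 5.49 in wild type arrays. In all, 16.1% of tested genes passed limma's adjusted p of 0.05. Arrays whose title numbers share their first 4 digits form 3 groups, each with arrays of both genotypes: the first holds knockout 1 and wild type 1, the second knockout 2 and wild type arrays 2 and 3, and the third knockout 3 and wild type 4. The meaning of that number is not stated, and it was treated as a possible batch.

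Of the 9 genes, 8 rose in knockout testis and none fell, and all 9 had positive fold changes. Of all tested genes 9.07% rose and 7.05% fell at the same threshold. The log2 fold changes of the 9 ran from 0.35 for Dmrt1 to 0.78 for Wt1, with a median of 0.58, while the median over all tested genes was -0.045. In 8 of the 9 every knockout array lay above every wild type array, a pattern that 12.8% of all tested genes showed. Members were chosen with earlier results of these data known, so these shares describe the set and are not a test of it. In whole tissue, a change in the share of each cell type and a change in RNA per cell, in these or in other cells, cannot be told apart.

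**Figure D1:**
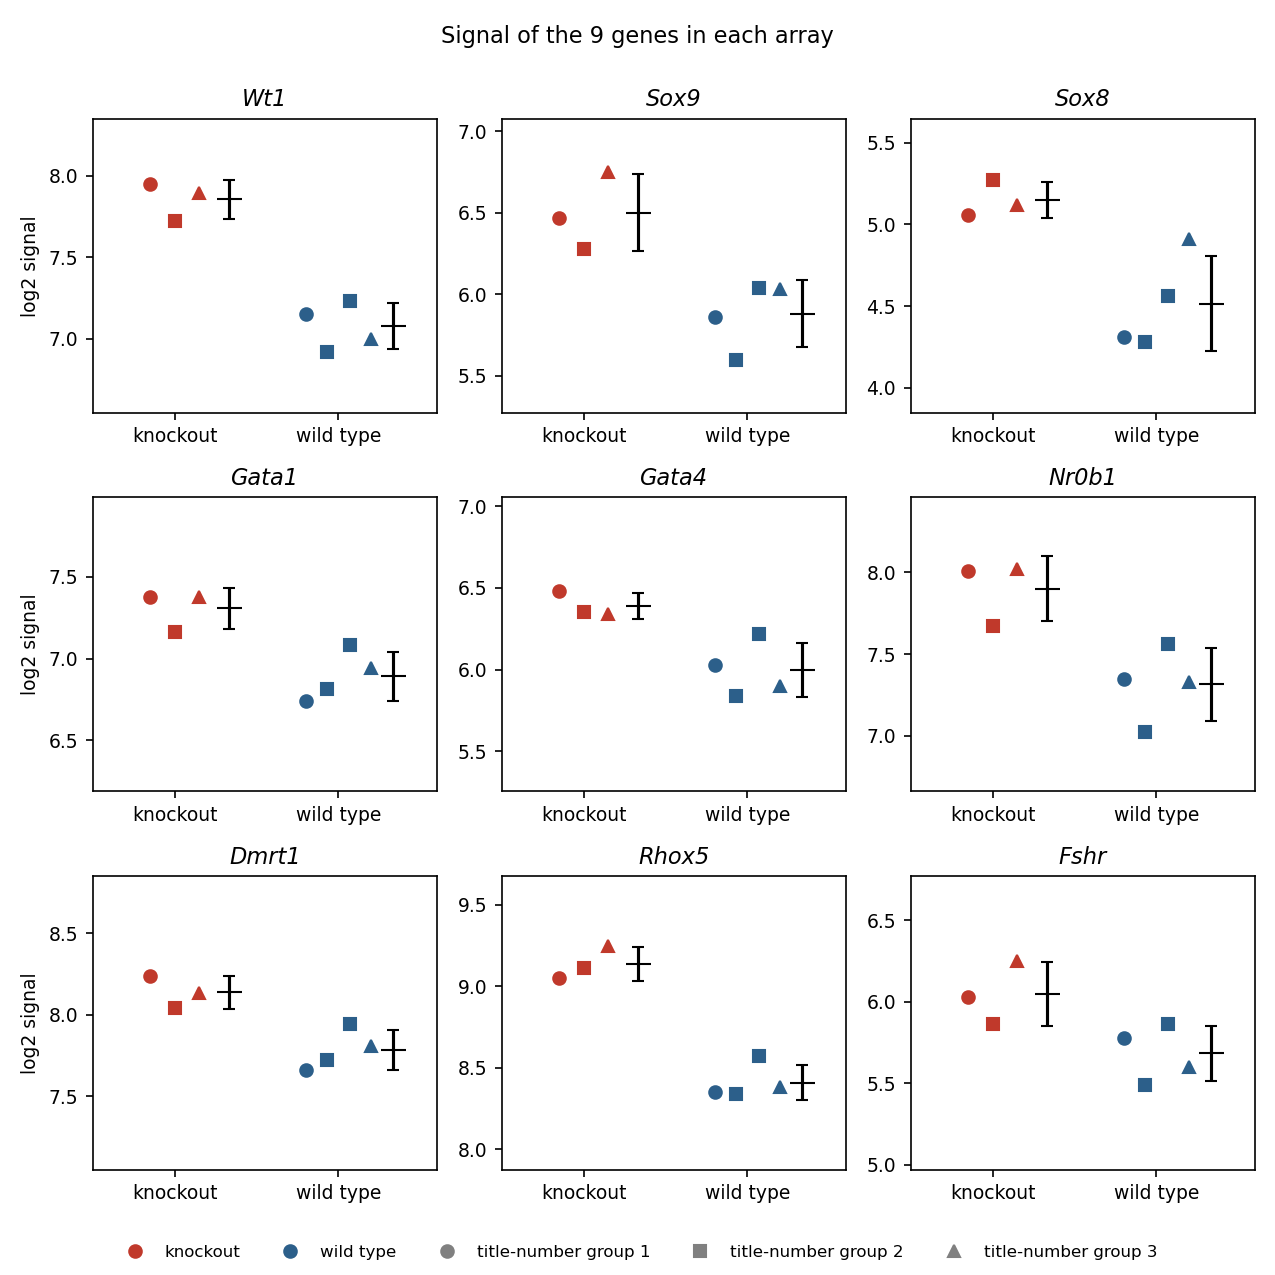
Log2 signal (vertical axis) of each of the 9 genes in 3 knockout and 4 wild type arrays; each point is an array, its shape gives the title-number group, and the bar beside the points is the mean with the SD. Every panel spans the same range of log2 units; knockout and wild type points are apart in all panels but that of Fshr, where knockout 2 and wild type 3 both stand at 5.86.

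For the genes below, 250 bases upstream of the transcription start are shown because each holds at least 1 of 5 short motifs that were searched. The sequences are from RefSeq (GRCm38.p6), written along the gene's own strand, in which 5 of the 9 genes matched (Sox8, Gata1, Nr0b1, Rhox5 and Fshr); Wt1, Sox9, Gata4 and Dmrt1 did not. Capitals mark matches, on either strand, to GATAA (bound by GATA factors), AACAAT (SOX factors), AGAACA (a steroid hormone response half-site), AGGTCA (nuclear receptor half-site) or CACGTG (an E-box).
Rhox5 (chrX:37754358-37754607, plus strand): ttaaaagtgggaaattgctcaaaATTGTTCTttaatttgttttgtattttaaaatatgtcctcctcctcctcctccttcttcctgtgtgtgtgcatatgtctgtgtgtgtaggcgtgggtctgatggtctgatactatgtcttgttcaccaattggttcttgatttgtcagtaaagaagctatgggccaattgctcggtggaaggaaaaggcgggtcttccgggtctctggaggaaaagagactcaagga
Nr0b1 (chrX:86191525-86191774, plus strand): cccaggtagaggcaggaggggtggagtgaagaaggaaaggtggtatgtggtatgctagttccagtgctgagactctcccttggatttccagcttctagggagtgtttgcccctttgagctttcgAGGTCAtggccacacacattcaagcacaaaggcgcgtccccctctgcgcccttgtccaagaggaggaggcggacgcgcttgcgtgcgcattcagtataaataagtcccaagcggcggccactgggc
Fshr (chr17:89200676-89200925, minus strand): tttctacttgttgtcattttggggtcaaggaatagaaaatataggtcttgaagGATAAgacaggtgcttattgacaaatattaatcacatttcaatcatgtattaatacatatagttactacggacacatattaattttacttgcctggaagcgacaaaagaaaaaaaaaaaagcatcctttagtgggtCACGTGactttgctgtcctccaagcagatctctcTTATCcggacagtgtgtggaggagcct
Sox8 (chr17:25570687-25570936, minus strand): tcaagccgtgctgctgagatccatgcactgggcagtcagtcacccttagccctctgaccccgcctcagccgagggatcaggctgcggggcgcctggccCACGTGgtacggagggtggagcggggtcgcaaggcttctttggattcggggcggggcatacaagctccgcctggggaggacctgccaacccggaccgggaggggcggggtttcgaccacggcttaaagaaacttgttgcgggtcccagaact
The Rhox5 window holds an AACAAT and an AGAACA, both on the opposite strand and overlapping each other. Fshr holds GATAA on each strand and a CACGTG 61 to 56 bases before its start, and Sox8 holds a CACGTG too. Nr0b1 holds 1 AGGTCA, and the Gata1 window held no match. Such short motifs are common: among 32851 promoter windows of this length 22.6% hold GATAA, 9.42% AACAAT, 16.1% AGAACA, 14.0% AGGTCA and 6.02% CACGTG. A match is a string of letters, not a site shown to be bound. Rhox5 is known to have separate distal and proximal promoters, and which of them this start belongs to was not established. Nor was it checked whether the starts of the other windows, that of Gata1 included, are those used in Sertoli cells.

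Wt1, which encodes a zinc finger factor that Sertoli cells need at every stage from the fetal gonad to the adult, rose most. Knockout arrays gave Wt1 signals of 7.95, 7.72 and 7.89 (log2), against 7.15, 6.92, 7.23 and 7.0 in wild type arrays. The groups were 0.49 log2 units apart at their closest. It rose by 0.78 on the log2 scale (SE 0.09, limma adjusted p = 0.00972), or 1.72-fold. In adult testis Wt1 is known chiefly from Sertoli cells. Its probe set is of a kind (suffix _s_at) whose probes can match more than 1 transcript.

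The SOXE factors bind DNA through an HMG box and drive male sex determination. Sox9 had log2 signals of 6.47, 6.28 and 6.75 in knockout arrays, against 5.86, 5.60, 6.04 and 6.03 in wild type arrays. It rose by 0.62 on the log2 scale (SE 0.14, limma adjusted p = 0.0239), and knockout 2 was the array nearest to wild type. Sox9 has 2 further probe sets, which did not all give the same size of change. When all probe sets were tested, one had a log2 fold change of 0.48 (SE 0.11, limma adjusted p = 0.0288). The other, with a mean log2 signal of 2.85 in knockout and 2.72 in wild type arrays, had one of 0.14 (SE 0.08, limma adjusted p = 0.269) and is far below the array medians.

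Sox8, the close relative that acts with Sox9 in keeping adult tubules intact, was dimmer. Sox8 had log2 signals of 5.06, 5.27 and 5.12 in knockout arrays, against 4.31, 4.28, 4.56 and 4.91 in wild type arrays. Wild type 4 stood nearest to the knockout arrays, and the wild type SD of 0.29 was the widest among the 9 genes. Sox8 rose by 0.64 (SE 0.15, limma adjusted p = 0.0264), but within the third title-number group it was 0.21, against 0.75 and 0.85 in the others. The mean wild type signal of 4.51 was under the array medians, and no detection call was at hand, which leaves the size of the rise uncertain.

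The GATA zinc finger factors showed smaller rises. Gata4, which is known in Sertoli, Leydig and peritubular cells and acts on Amh, Inha and Star, had log2 signals of 6.48, 6.35 and 6.34 in knockout arrays, against 6.03, 5.84, 6.22 and 5.90 in wild type arrays. It rose by 0.39 (SE 0.10, limma adjusted p = 0.0313). A dimmer second Gata4 probe set had a log2 fold change of 0.21 (SE 0.12, limma adjusted p = 0.285), and with the mean of both probe sets the gene was not past the threshold. Gata1, the master factor of red blood cells, is made in the adult mouse testis by Sertoli cells of certain tubule stages. Gata1 signals on the log2 scale were 7.38, 7.16 and 7.38 in knockout arrays, against 6.74, 6.81, 7.08 and 6.94 in wild type arrays, with a rise of 0.41 (SE 0.10, limma adjusted p = 0.0276). The closest knockout and wild type arrays were 0.08 apart, the narrowest gap among the 8 genes that rose.

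Nr0b1 encodes DAX1, an orphan nuclear receptor that curbs the activity of NR5A1 and is known in Sertoli and Leydig cells. Its log2 signals were 8.01, 7.67 and 8.02 in knockout arrays, against 7.35, 7.02, 7.56 and 7.33 in wild type arrays. The rise was 0.58 (SE 0.14, limma adjusted p = 0.0261). As with Sox9, knockout 2 was the lowest knockout array and wild type 3 the highest wild type array.

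Dmrt1, a DM-domain factor present in both Sertoli cells and spermatogonia, had the smallest fold change of the 9. Its log2 signals were 8.24, 8.04 and 8.13 in knockout arrays, against 7.66, 7.72, 7.94 and 7.81 in wild type arrays. The difference was 0.35 (SE 0.08, limma adjusted p = 0.0285), and the groups were 0.10 apart at their closest.

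Rhox5, an X-linked homeobox gene whose transcription in Sertoli cells depends on androgen and which is used as a readout of androgen action there, rose by 0.73 (SE 0.08, limma adjusted p = 0.00874). Knockout arrays stood at 9.05, 9.11 and 9.25 on that scale, against 8.35, 8.34, 8.57 and 8.38 in wild type arrays. The spread within each genotype was small beside the 0.48 log2 units between the closest arrays. Rhox5 had the smallest adjusted p of the 9.

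Fshr was the member that did not pass. Its log2 signals were 6.03, 5.86 and 6.25 in knockout arrays, against 5.78, 5.49, 5.86 and 5.60 in wild type arrays. Knockout 2 and wild type 3 had the same signal, so the groups met. Knockout was higher by 0.36 on the log2 scale (SE 0.12, limma adjusted p = 0.0688), of nearly the same size as that of Dmrt1 but with a larger error. Without the dimmest 33.3% of genes its adjusted p was 0.0476, and in a fit blocked on title-number group it was 0.117.

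In exact two-sided permutation tests over the 35 divisions of the 7 arrays, Wt1, Sox9, Nr0b1 and Rhox5 reached p = 0.0286, the smallest possible. Exact p was 0.0571 for Sox8, Gata1, Gata4 and Dmrt1, and 0.0857 for Fshr. Within the 3 title-number groups all 9 genes were higher in knockout in every group, as were 21.6% of all tested genes. These within-group differences ran from 0.18 to 0.89, and their medians over the 9 genes were 0.64, 0.38 and 0.65. When limma was blocked on these groups, Wt1 (adjusted p = 0.0223), Rhox5 (0.0217), Sox9 (0.0330) and Sox8 (0.0371) stayed past the threshold, where 7.71% of all tested genes rose. Nr0b1 (0.0505), Gata4 (0.0539), Gata1 (0.0545) and Dmrt1 (0.0591) did not, with fold changes of 0.56, 0.40, 0.41 and 0.35 in that order.

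The calls of Wt1 and Rhox5 held in all 7 limma runs that left out 1 array. Only these were past the threshold without knockout 1, without knockout 3 or without wild type 1. Without wild type 2 Sox9 was past it as well. Without wild type 4 the count was 5 (Wt1, Sox9, Sox8, Gata1 and Rhox5), without knockout 2 it was 6 (all but Sox8, Gata4 and Fshr), and without wild type 3 it was 8. Over these runs the log2 fold change of Wt1 ran from 0.73 to 0.84 and that of Rhox5 from 0.67 to 0.78. Leaving out knockout 3 and wild type 4 together, an alternative chosen after the data were seen, left 0 of the 9 past the limma threshold (adjusted p 0.0748 to 0.313; 8 of the 9 had an unadjusted p under 0.05; of all tested genes 4 passed and 4556 had an unadjusted p under 0.05), with fold changes of 0.73 for Wt1 and 0.66 for Rhox5.

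**Figure D2:**
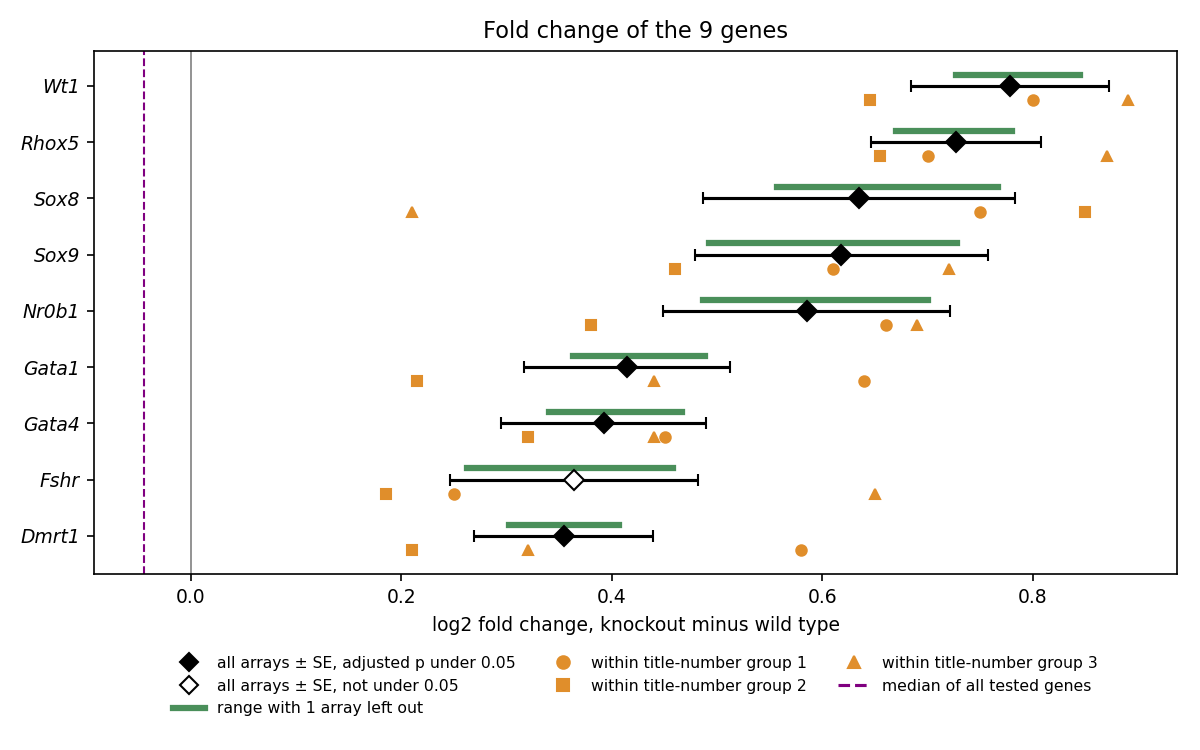
Log2 fold change, knockout minus wild type (horizontal axis), of the 9 genes: diamonds with SE bars for all arrays (filled where the limma adjusted p was under 0.05), bars above them for the range with 1 array left out, and small markers below for the difference within each title-number group. Every value lies above 0 and above the dashed line at -0.045, the median of all tested genes; Wt1 and Rhox5 are highest, and Sox8 has the widest range between title-number groups.

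The arrays stood in a shared order. Among wild type arrays, wild type 3 was the highest for 8 of the 9 genes and wild type 2 the lowest for 7. Knockout 2 was the lowest knockout array for 6 of them. With each gene centred on its mean over the 7 arrays, the 9 averaged 0.34, 0.20 and 0.39 in knockout arrays 1 to 3, against -0.27, -0.40, -0.064 and -0.19 in wild type arrays 1 to 4. The corresponding averages of 19 other Sertoli cell markers were 0.33, 0.24 and 0.46 in knockout arrays, against -0.28, -0.45, -0.093 and -0.21 in wild type arrays. The order of the arrays was thus the same for both sets within each genotype. It was not particular to Sertoli cell genes: Leydig cell and macrophage markers, taken up below, followed the same order. Peritubular and spermatogonia markers did not.

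Whether the 9 genes changed by unequal amounts was tested over all 36 pairs, by comparing the within-array difference of log2 signals between genotypes. Groups did not overlap for 10 pairs, and 6 pairs reached the smallest exact permutation p of 0.0286, but no pair passed after adjustment over the 36 (smallest adjusted p = 0.172, two-sided exact permutation). The 6 set Wt1 against Gata4 and Fshr, and Rhox5 against Gata1, Gata4, Dmrt1 and Fshr. The widest of them, Wt1 over Fshr, was 0.41 larger in knockout, a difference of 1.81 ± 0.15 in knockout (SD, n = 3) and 1.39 ± 0.03 in wild type arrays (SD, n = 4; exact permutation p = 0.0286). A design of 3 against 4 arrays cannot pass this adjustment unless many more pairs reach the smallest p.

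The counts of the gene lists from here on stand beside shares of 9.07% rising and 7.05% falling over all tested genes. Of 19 measured Sertoli cell markers apart from the 9 genes, 16 rose, none fell and 3 did not pass. Their median log2 fold change was 0.67. The count of rises was 16 with the title-number block too, but 2 without knockout 3. Their mean log2 level ran from 9.15 to 9.38 in knockout arrays and from 8.47 to 8.82 in wild type arrays. The tight junction gene Cldn11 (0.73, SE 0.11), the gap junction gene Gja1 (0.92, SE 0.14), the protease gene Ctsl (0.62, SE 0.08) and the cystatin gene Cst12 (0.72, SE 0.09) had the smallest p. The 3 that did not pass were Amh (-0.17, SE 0.10), the stem cell niche factor gene Gdnf (0.27, SE 0.14) and Mro (0.48, SE 0.18), the last pair named after their values were seen.

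Set against the mean of these 19 markers within each array, the 9 genes were not shown to have changed more or less than other Sertoli cell genes. Wt1 was 0.17 higher relative to the markers (exact permutation p = 0.0857) and Rhox5 0.12 higher (exact permutation p = 0.114). Sox9 (0.013), Sox8 (0.031) and Nr0b1 (-0.019) differed least from the markers. Gata1 (-0.19), Gata4 (-0.21), Fshr (-0.24) and Dmrt1 (-0.25) lay lower relative to them. Dmrt1 stood at -1.01, -1.11 and -1.25 log2 units from the marker mean in knockout arrays, against -0.97, -0.75, -0.88 and -0.90 in wild type arrays, without overlap. Its exact permutation p of 0.0286 became 0.171 after adjustment over the 9 genes, and that of Fshr, whose groups did not overlap either, was 0.0571 before and 0.171 after. These exact tests were chosen after the data were seen. With limma on arrays centred in this way 0 of the 9 passed (unadjusted p 0.0685 to 0.919). Of all tested genes 88.8% did, because this centring takes the median log2 fold change of all genes to -0.65, against -0.045 without it. In that fit the SE of the 9 ran from 0.13 to 0.15, against 0.08 to 0.15 without centring, so shifts of this size would rarely pass. Neither test can show that the 9 changed by the same amount as the markers.

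**Figure D3:**
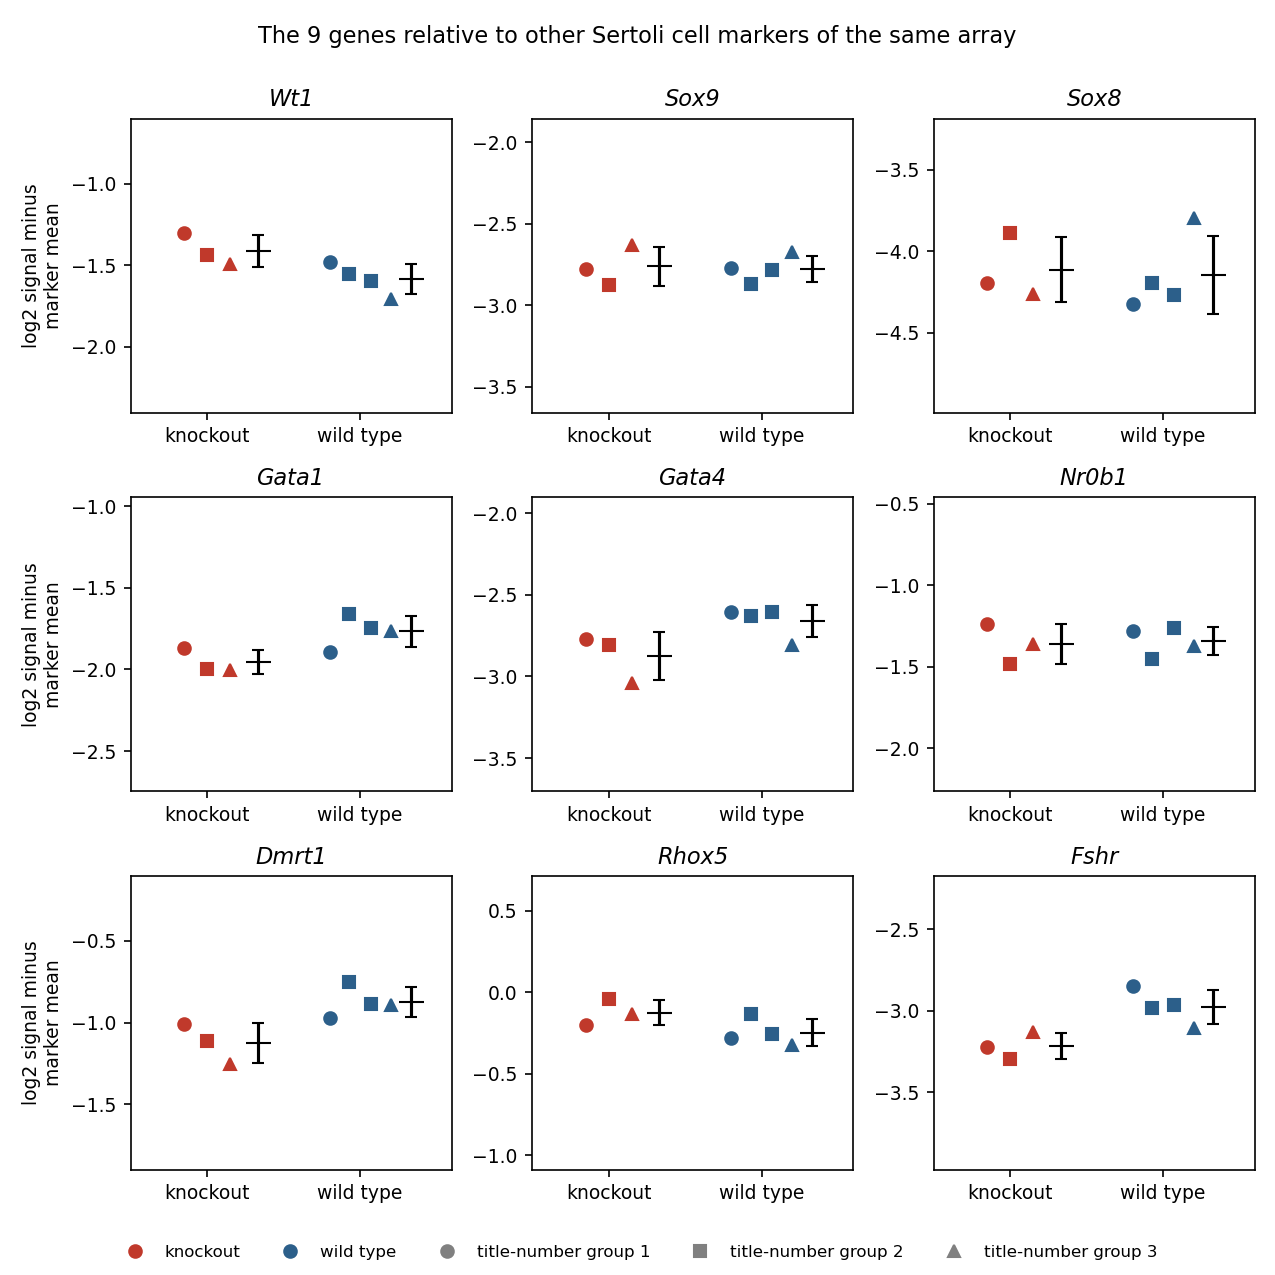
Log2 signal of each of the 9 genes minus the mean log2 signal of 19 other Sertoli cell markers on the same array (vertical axis), in 3 knockout and 4 wild type arrays, with mean and SD beside the points; only the shift between genotypes is to be read, not the height. The groups overlap in all panels except those of Dmrt1 and Fshr, where knockout lies lower.

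Of 13 measured other transcription factors and cofactors of Sertoli cells, 4 rose, none fell and 9 did not pass (median 0.25). With the title-number block 1 rose and 1 fell. The rises numbered 0 with the mean of all probe sets (5 were higher at an unadjusted limma p under 0.05) and 2 with quantile normalization. Leaving out knockout 3, wild type 1 or wild type 2 also gave 0 rises (5, 6 and 6 at the unadjusted level), knockout 1 or wild type 4 gave 1, and knockout 2 gave 2. Nr5a1, which encodes steroidogenic factor 1, the partner of WT1, SOX9 and GATA4 at the Amh promoter and the target of NR0B1 repression, rose by 0.52 (SE 0.13, limma adjusted p = 0.0335). Its log2 signals were 7.44, 7.19 and 7.47 in knockout arrays, against 7.0, 6.58, 7.08 and 6.71 in wild type arrays, again with knockout 2 lowest and wild type 2 lowest in their groups. Etv5, an ETS factor of the stem cell niche, rose by 0.49, Creb1, which cyclic AMP signalling activates, by 0.41, and the thyroid hormone receptor gene Thra by 0.28. Etv5 and Nr5a1 are also made outside Sertoli cells, in spermatogonia and in Leydig cells.

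The hormone receptor and its relay were followed next. Of 19 genes downstream of the FSH receptor, 5 rose, 1 fell and 13 did not pass (median 0.20). There were 3 rises and 0 falls with the title-number block, 2 and 0 with the mean of all probe sets, and 0 and 0 without knockout 3 (7 higher and 1 lower at an unadjusted limma p under 0.05). Leaving out knockout 1 or any one of wild type 1, 2 and 3 gave 3 rises. Gnas, which encodes the stimulatory G protein that couples FSHR to adenylyl cyclase, rose by 0.66 (SE 0.09, limma adjusted p = 0.0116). Gnas had log2 signals of 10.74, 10.69 and 10.77 in knockout arrays, against 10.00, 9.87, 10.24 and 10.17 in wild type arrays. The protein kinase A genes Prkacb (0.58) and Prkar2a (0.41) rose, as did Creb1 and the forkhead gene Foxo1 (0.28, named after its value was seen). Crem, whose main testis product is a germ cell activator, fell by 0.26, a call that among runs without 1 array held only without knockout 2 or wild type 3. Among all tested genes 9.07% rose and 7.05% fell. Of 16 other hormone and growth factor receptors, 3 rose, 2 fell and 11 did not pass (median -0.053). With the title-number block 2 rose and 1 fell. Leaving out knockout 1 gave 1 rise and 1 fall, knockout 3 gave 0 and 0 (4 higher and 3 lower at the unadjusted level), wild type 1 gave 1 and 0, wild type 2 gave 2 and 0, and wild type 4 gave 2 and 1. The oestrogen receptor gene Esr1, known mainly from Leydig and peritubular cells, rose by 0.67, the AMH receptor gene Amhr2 by 0.63 and Thra as above. The insulin receptor gene Insr fell by 0.39 and the activin receptor gene Acvr2a by 0.28. With the mean of all probe sets 4 of these receptor genes rose and 0 fell (6 higher and 1 lower at the unadjusted level), so the falls depended on the probe set used.

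Of 17 measured genes known in mouse or rat to be acted on by these factors and hormones, 12 rose, none fell and 5 did not pass (median 0.56). The rises numbered 11 with the title-number block, but 1 without knockout 3 and 5 without wild type 1. Eppin, an androgen-responsive protease inhibitor gene of Sertoli cells, had log2 signals of 9.21, 9.43 and 9.53 in knockout arrays, against 8.38, 8.47, 8.78 and 8.53 in wild type arrays, and rose by 0.85 (SE 0.11, limma adjusted p = 0.0115). Like Rhox5 it stood apart in every knockout array. The inhibin subunit genes Inha (0.71) and Inhbb (0.67), whose product restrains FSH release, rose too. Ptgds, a SOX9 target that makes prostaglandin D2, rose by 0.91 (SE 0.20), and Cyp26b1, the retinoic acid-degrading enzyme gene kept on by SOX9, by 0.56 (SE 0.11). Amh, the classical joint target of SOX9, WT1, GATA4 and NR5A1, had log2 signals of 5.55, 5.26 and 5.14 in knockout arrays, against 5.52, 5.51, 5.46 and 5.46 in wild type arrays, and its fold change was -0.17 (SE 0.10, limma adjusted p = 0.242). The RHOX5 targets Unc5c (-0.13) and Ins2 (-0.11), and Gdnf and the androgen-responsive claudin gene Cldn3 (0.18), did not pass. Of the 17, 10 are also on the Sertoli marker list, so this list is not separate from that one.

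Of 15 measured testis determination genes, 4 rose and none fell (median 0.11), where 9.07% of all tested genes rose. The rises numbered 1 without knockout 1 and 0 without knockout 3 or wild type 1 (5 and 4 higher at the unadjusted level). The 4 were Ptgds, Cyp26b1, Nr5a1 and the hedgehog ligand gene Dhh (0.46). Each of these 4 is also on a list counted above, so this count is not separate from those. Sry, the Y-linked switch upstream of Sox9 in the fetal gonad, averaged 5.23 in knockout and 5.26 in wild type arrays, with a fold change of -0.024 (SE 0.10). Ovarian granulosa cell genes, which appear in mouse Sertoli cells that lose DMRT1, gave 1 rise and no fall among 10 measured (median 0.056). That count is near the 9.07% of all tested genes that rose. The rise was that of Ctnnb1 (0.42), which encodes beta-catenin and is expressed in many cell types; it was not past the threshold without knockout 1, knockout 3 or wild type 1. The ovarian factor gene Foxl2 averaged 5.83 ± 0.11 in knockout arrays (SD, n = 3) and 5.93 ± 0.06 in wild type arrays (SD, n = 4), with a fold change of -0.095 (SE 0.07, limma adjusted p = 0.376). Just 1 of these 10 genes was brighter than the middle gene of those tested, so a small change in the others may not be measurable.

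Several members are made by other testis cells, and markers of some of these moved with genotype. Of 7 measured Leydig cell markers 3 rose and none fell (median 0.80; 4 rose with the title-number block, 5 with median centring, 6 without the dimmest genes and 1 without knockout 1 or knockout 3), and their mean level ran from 9.29 to 9.71 in knockout arrays and from 8.49 to 8.95 in wild type arrays. Cyp11a1, the first enzyme of steroid synthesis, rose by 0.58, Pdgfra by 1.02 and Cyp17a1 by 0.61, and Star had a fold change of 0.93 (SE 0.29, limma adjusted p = 0.0590). Of 8 peritubular and smooth muscle markers 3 rose (Mylk 0.92, Myl9 0.76 and Acta2 0.62) and none fell (median 0.38). Their mean level ran from 7.85 to 8.10 in knockout arrays and from 7.46 to 7.63 in wild type arrays. Of the 5 that did not pass, Tagln (0.38), Myh11 (0.38) and Cnn1 (0.24) were higher in knockout, and Des (-0.025) and Actg2 (-0.12) were lower. Cnn1, Des and Actg2 were named after their values were seen. Of 9 macrophage markers 6 rose and none fell (median 0.65). Their mean level ran from 6.93 to 7.61 in knockout arrays and from 6.42 to 6.82 in wild type arrays. The 3 that did not pass were the defining marker Adgre1 (0.26, SE 0.14), Cd68 (0.465) and C1qb (0.29), the last pair named after their values were seen. The macrophage rises numbered 2 with the title-number block or without wild type 4, 1 without knockout 1, wild type 1 or wild type 2, and 0 without knockout 3 (6 higher at the unadjusted level). The part of these cells in the values of Gata4, Nr0b1 and the other members was not tested.

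Spermatogonia, which share Dmrt1 with Sertoli cells, gave 1 rise (Sohlh2, 0.37) and no fall among 14 measured markers, with a median of 0.092. Their mean level was 6.63 to 6.81 in knockout arrays and 6.52 to 6.71 in wild type arrays, so the groups overlapped, and the defining markers Zbtb16 (0.21, SE 0.12) and Gfra1 (-0.097, SE 0.08) did not pass. Sohlh2 was past the threshold neither with the title-number block nor in the runs without 1 array, except that without wild type 4. The 1 rise among 14 markers is near the share of all tested genes that rose, 9.07%. Spermatid markers, at a mean level of 11.92 to 11.93 in knockout arrays and 11.97 to 12.12 in wild type arrays, gave 3 falls (Spem1, Prm3 and Tssk2) and no rise among 16 genes, with a median of -0.099. These falls numbered 0 with the title-number block, the replicate block (4 lower at the unadjusted level in each) and quantile normalization (3), and without any 1 array other than wild type 3. Without knockout 3 and wild type 4 together no gene of any list above passed. None of 8 endothelial markers passed the limma threshold in either direction, and 0 had an unadjusted p under 0.05. In the lists above of which none fell or none rose, 1 gene, among the 13 other factors and cofactors, was lower in knockout at an unadjusted limma p under 0.05, and in the others 0 moved in that direction at that level.

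**Figure D4:**
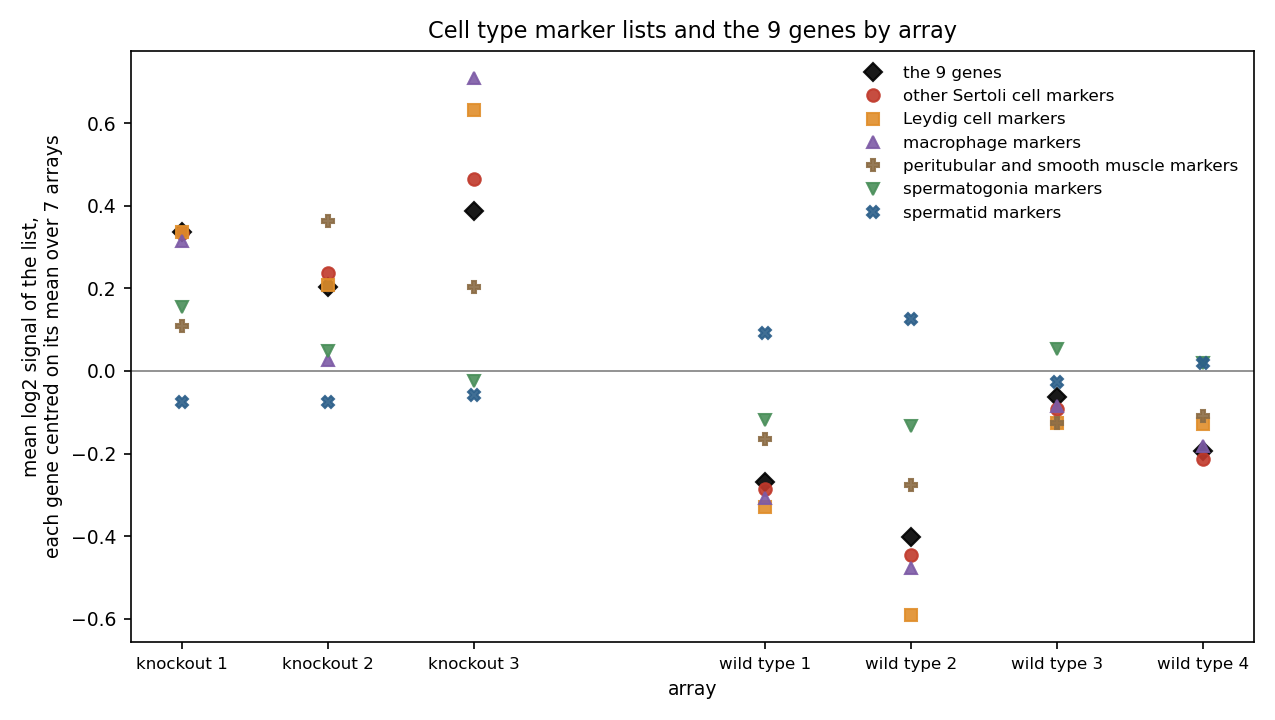
Mean log2 signal of the 9 genes and of 6 marker lists in each array (vertical axis, each gene centred on its mean over the 7 arrays); knockout arrays are on the left and wild type arrays on the right, and each point is the mean of a list. The 9 genes lie close to the other Sertoli cell markers in all 7 arrays, macrophage markers are spread more widely in knockout than in wild type arrays, and spermatid markers stay between -0.076 and 0.125.

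Position was not shared by the set. The 9 genes lie on 6 chromosomes: 3 on X (Gata1, Nr0b1 and Rhox5), 2 on 17 (Sox8 and Fshr) and 1 each on 2 (Wt1), 11 (Sox9), 14 (Gata4) and 19 (Dmrt1). None lies on chromosome 4, which carries Phf13. All 3 X-linked members rose, and so did 194 of 617 X-linked genes tested (31.4%), with no X-linked fall (194 became 13 without knockout 3, 80 without wild type 1 and 100 without knockout 1) and a median log2 fold change of 0.18 for that chromosome. The part of X linkage in the values of these 3 genes was not tested; the 5 autosomal members that rose ran from 0.35 to 0.78.

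Genes whose profile over the 7 arrays was most like the mean profile of the 9 were ranked by root mean square difference of centred log2 signals among 16303 genes with a proper name. The nearest were the kinase gene Wnk3 (0.0237), the PDZ and LIM domain gene Pdlim5 (0.0251), the kinase gene Map4k4 (0.0294), Bex2 (0.0313) and Mapk1ip1l (0.0355). Wnk3 had log2 signals of 8.01, 7.85 and 8.10 in knockout arrays, against 7.43, 7.26, 7.65 and 7.48 in wild type arrays. Among the 9 themselves, Gata1 and Dmrt1 were nearest to each other (0.0515), then Gata4 to Dmrt1 (0.0931), Sox9 and Nr0b1 (0.0979) and Wt1 and Rhox5 (0.109). Sox8 was the member farthest from any other (0.207 from Rhox5), with wild type 4 in place of wild type 3 as its highest wild type array. Each of the 9 was nearer to a gene outside the set than to any other member. The search outside covered 16303 genes and that within only the other members. A nearer gene outside was therefore likely whatever the members did, and nothing is drawn from it. Examples of the nearest genes outside are Akap7 for Gata1 (0.0203), Uggt1 for Dmrt1 (0.0356) and Slc49a4 for Sox8 (0.0738).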

How the data were processed

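Whole testis RNA was labelled from 2 ug of total RNA and hybridised to Affymetrix arrays, per the labels' protocols. The deposited values are log2 signals of 45101 probe sets, and the submitters' processing notes name Affymetrix Expression Console 1.4.1. The authors' background correction, summarisation and normalization were not given in the sources used here; the log2 scale was read from the range, 1.59 to 13.92. The table has no read depth, so the number of arrays limits precision (median SE of a fold change 0.0843).

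Gene symbols came from a platform annotation table: 34958 probe sets had 1 symbol, 932 several and 9211 none or no entry. Each of 18194 genes was represented by its brightest such probe set, averaged over all arrays. Knockout and wild type were set against each other in limma 3.58.1 under R 4.3.3 (lmFit, eBayes, two-sided), adjusted by Benjamini-Hochberg over all tested genes at 0.05; "rose" and "fell" mean past that threshold, and fold changes are knockout minus wild type on the log2 scale. Single values were checked by exact permutation over 35 divisions.

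The members, lists and tests were chosen with earlier results of these data known. Named genes were the 9 members, up to 4 per list of smallest p, a fixed set of well-known genes, and the nearest profiles. The alternatives were other scalings, filters, probe set rules, model settings, blocks and left-out arrays. The titles' replicate numbers were not shown to pair the arrays: deviations from the genotype means correlated at 0.182, 0.103 and -0.143 for numbers 1, 2 and 3. The arrays of numbers 1 and 2 also share a title-number group. Within title-number groups these correlations ran from 0.103 to 0.319, and outside them from -0.166 to 0.0227. Red blood cell markers and the tests relative to other Sertoli markers were added after the data were seen.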

Additional observations from a re-analysis of the deposited data

Results flagged for a closer look

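Among the 9 genes and Phf13, no wild type array stood far from the other 3 by Dixon's test, and knockout, with 3 arrays, was not tested. Among 115 probe sets and listed genes tested in this way, 11 were flagged for 1 wild type array apart from the rest. Chance flags about 1 group in 20, a rate that does not hold where rounded signals tie. The test weighs a gap against the range of the group. It therefore flags small gaps where the other 3 arrays tie, as for Cnn1, Gata5 and Dmrta2. The set of genes tested was changed after its flags had been seen: a narrower choice of 104 gave 6, and the 5 flags outside it (Cnn1, Des, Actg2, C1qb and Dmrta2) are given here with the others. Wild type 3 was low for the activin receptor gene Acvr2a at a log2 signal of 7.77, with the other wild type arrays at 7.93 to 7.96. Wild type 2 was high for the ovarian factor gene Foxl2 (6.01, the others at 5.89 to 5.90). Wild type 2 was also low for the endothelial genes Cdh5 (4.15, the others at 4.37 to 4.38) and Emcn (3.79, the others at 3.90 to 3.91), for the macrophage complement gene C1qb (7.28, the others at 7.59) and for the dim Dmrta2 (3.44, the others at 3.47). Wild type 1 was high for Gata2 (7.52, the others at 7.34 to 7.36) and for the smooth muscle actin gene Actg2 (10.03, the others at 9.80 to 9.81). Wild type 3 was high for the muscle filament gene Des (6.62, the others at 6.54 to 6.55). Wild type 4 was apart for the smooth muscle gene Cnn1 (5.38, the others at 5.40) and for the dim Gata5 (3.68, the others at 3.65). None of the 11 is one of the 9 genes.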

How the results depend on the processing

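Of the 9 genes, 8 were past the threshold with all arrays. The count was 0 with arrays centred on the other Sertoli cell markers, 4 with the title-number block, 5 without the dimmest 50% of genes (only 5 of the 9 are then tested), 0 without knockout 3 and wild type 4, and between 2 and 8 with 1 array left out. The median of the 9 was 0.58, and was -0.019 centred on the Sertoli markers, 0.41 with the mean of all probe sets and 0.38 within the second title-number group. Over all genes 2934 passed (1651 rose, 1283 fell), and 16158 did centred on the Sertoli markers, 4 without knockout 3 and wild type 4, and between 175 (without knockout 3) and 2574 with 1 array left out; leaving out knockout 1 gave 996, wild type 1 gave 741 and wild type 2 gave 1364. Centred on the Sertoli markers, Gata1 (-0.19), Gata4 (-0.21), Nr0b1 (-0.019), Dmrt1 (-0.25) and Fshr (-0.24) changed sign, none past the threshold. Counts with arrays left out rest on fewer samples, but they also depended on which array was left out. With the same number of arrays, 2500 genes passed without knockout 2 and 175 without knockout 3. Likewise 2574 passed without wild type 3 and 741 without wild type 1. Median centring (1635 rose, 2042 fell), leaving out the dimmest 50% of genes (1529 rose, 1737 fell) and the replicate block (1634 rose, 660 fell) moved the split of calls. The replicate block, whose numbers were not shown to pair the arrays, gave 7 of the 9, with a median of 0.59. Over all genes 2294 passed with it. Gata4 (limma adjusted p = 0.0703) and Dmrt1 (0.0646) were not past the threshold there, and Fshr (0.0411) was. Under quantile normalization, median centring, array weights, all probe sets, and trend and robust settings the same 8 genes passed. Signals above background could not be checked, which limits Sox8 most.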

Other observations

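Relatives of the 9 genes moved in both directions, as did genes at large: 9.07% of all tested genes rose and 7.05% fell. The counts below are few and were not tested against those shares. Of 17 other Sox genes measured, 2 rose (Sox4 by 0.64 and Sox12 by 0.38, the second named after its value was seen), 3 fell (Sox6, Sox30 and Sox1) and 12 did not pass, with a median log2 fold change of -0.22. With the title-number block 2 rose and 1 fell. Leaving out 1 array gave 0 or 1 rises and 0 to 2 falls, with 0 of either without knockout 1 or wild type 1 (2 higher in each, and 5 and 4 lower, at an unadjusted limma p under 0.05). Sox30, a factor of spermatids, averaged 7.18 ± 0.19 in knockout arrays (SD, n = 3) and 7.54 ± 0.05 in wild type arrays (SD, n = 4). Sox1 was dim, at 3.84 in knockout and 4.20 in wild type arrays. Of 4 other Gata genes, Gata3 fell by 0.51 from low signals (a call lost with the title-number block, and kept among runs without 1 array only without knockout 2 or wild type 2), and Gata6, a partner of Gata4 in gonadal somatic cells, had a fold change of 0.25 (SE 0.10, limma adjusted p = 0.136).

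Of 7 other Dmrt genes, Dmrta1 rose by 0.89 (SE 0.12, limma adjusted p = 0.0116) and the X-linked Dmrtc1a by 0.47 (SE 0.08); both calls were lost without knockout 3. Dmrta1 had log2 signals of 7.19, 7.19 and 7.38 in knockout arrays, against 6.27, 6.10, 6.62 and 6.45 in wild type arrays, a larger fold change than that of any of the 9 genes. Dmrta1 lies on chromosome 4, as Phf13 does. So do Dmrtb1 (-0.21, SE 0.07) and the dim Dmrta2 (0.078, SE 0.08), which did not pass. None of 3 other Rhox genes passed the limma threshold, and 1 was higher in knockout at an unadjusted p under 0.05; Rhox13, a germ cell gene, had a fold change of 0.26 (SE 0.10, adjusted p = 0.117). Of 5 measured red blood cell markers, a cell type in which Gata1 is the master factor, none rose (0 were higher at an unadjusted limma p under 0.05) and 1 fell (0 fell without any one of knockout 1, knockout 3 and wild type 1, 2 and 3, with 2 lower at the unadjusted level in each), and the erythroid factor gene Klf1 had a fold change of -0.71 (SE 0.21, limma adjusted p = 0.0539).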
